A study of Mus musculus with 48 samples.

Results

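The 8 genes described here are known from the response of neurons to axon injury and from axon regrowth, and were followed in mouse brain after occlusion of the middle cerebral artery. They are *Atf3*, *Jun*, *Maff*, *Fosl1*, *Sox11*, *Klf6*, *Gap43* and *Sprr1a*. They were picked by name, as 8 of the 46983 genes listed in the count tables, and with earlier results of the same libraries known. Which values led to the choice is not recorded, so their differences between MCAO and other libraries are given as a description, without p-values. The data were bulk RNA-seq libraries of brain tissue, 48 in 11 groups. All 8 genes had more than 10 counts in total and were among the 19970 genes tested.

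All mice were 3-month-old C57Black/6 males. MCAO stands for middle cerebral artery occlusion, in which the artery was coagulated and cut through a hole in the skull, leaving a small lesion in the parietal cortex that is not reperfused. Sham mice had the same operation under isoflurane without coagulation, and the control was cortical tissue of mice without an operation. There were 4 control libraries, 4 sham libraries at each of 3 h, 12 h, 24 h, day 3 and day 7, and 5 MCAO libraries at each of these times except 24 h, which had 4. The tissue taken held injured and uninjured brain together, so a level is an average over both. Its extent is described in more than one way, as injured cortex in the sample labels and as a forebrain hemisphere in the series' design text, and the control is labelled cortical, so how much tissue from outside the cortex each library held is not settled. In such bulk tissue, fewer cells of a type and less RNA per cell cannot be told apart.

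When an axon is cut, stress kinases of the JNK pathway signal to the cell body, where transcription factors switch on a growth program. ATF3, JUN, FOSL1 (also called FRA-1) and MAFF are basic leucine zipper (bZIP) proteins, which bind DNA as pairs. JUN pairs with proteins of the FOS and ATF families as AP-1, ATF3 joins such pairs and can repress or activate, FOSL1 is a FOS relative, and MAFF is a small MAF protein that lacks an activation domain of its own. SOX11 and KLF6 are transcription factors that favor axon growth, GAP43 is a growth cone protein under the membrane, and SPRR1A is a protein of the cornified layer of skin that injured sensory neurons also make. Peripheral neurons raise this program strongly after injury and adult cortical neurons much less, which is general background and not a result of these data.

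The libraries held between 1522668 and 2826735 reads assigned to genes, with a median of 1935856. Levels are given as CPM, the reads of a gene scaled to the TMM-normalized size of the library. With reads taken near the 3′ end of each transcript 1 CPM was about 2 reads per library. Markers of neurons (12 genes) were read in all groups, and their summed level ran from 7469 to 15368 CPM after MCAO and from 11502 to 15469 CPM in sham and control libraries. The summed level of 7 striatal markers ran from 146 to 3761 CPM over the MCAO libraries. It ran from 333 to 2038 CPM in sham and from 565 to 1622 CPM in control libraries. Of the MCAO libraries, 12 h A and day 3 A had the lowest granulocyte marker sums of their times (16.3 and 8.54 CPM) and were each lowest of their time for 4 of the genes described here, and day 7 C had the lowest neuronal sum (7469 CPM) with the highest sums of microglia and macrophage (4580 CPM) and fibroblast (5975 CPM) markers. These 3 libraries were singled out after their values were seen. Library 3 h E was also lowest of its time for 4 of the genes, and 24 h A and day 7 A for 3 each, and these were kept. Each of these kept libraries also had the lowest granulocyte marker sum among the MCAO libraries of its time. The sums were 18.22 CPM in 3 h E, 48.01 CPM in 24 h A and 12.11 CPM in day 7 A.

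*Atf3*, *Maff* and *Fosl1* were low without the occlusion, at no more than 2.31, 3.99 and 1.15 CPM, and were read in 22, 23 and 17 of the 24 MCAO libraries. *Jun*, well expressed in all 48 libraries, was 1.67 to 2.74 times its sham level. *Sox11*, *Klf6* and *Gap43* stayed within 0.66 of the sham level on the log2 scale at all 5 times, and *Sprr1a* had 22 reads in all.

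Of the 8 genes, 1 was called higher at 3 h (*Maff*), where 0.0901% of all genes tested were, and 1 at day 7 (*Jun*), where 2.07% were. A call stands for a Benjamini-Hochberg adjusted p under 0.01 and a log2 difference over 0.58 in edgeR's quasi-likelihood fit of all groups. At 12 h, 24 h and day 3 edgeR called 0 of them, against 0.346%, 0.0801% and 3.76% of all genes called higher. At an unadjusted p under 0.05 these 3 times had 5, 4 and 5 of the 8, and DESeq2 called 1 (*Jun*), 1 (*Maff*) and 0. Of all 19970 genes tested, 2913, 1757 and 4306 had such a p at these 3 times. DESeq2 called 179, 44 and 1027 of all genes there. Counted by library instead, every MCAO library lay above every sham library of its time for 3 genes at 3 h (*Atf3*, *Jun*, *Maff*; 2.26% of all genes), 1 at 12 h (*Jun*; 2.03%) and 4 at 24 h (*Atf3*, *Jun*, *Maff*, *Fosl1*; 3.76%). At day 3 this held for 0 of them (4.33% of all genes) and at day 7 for 1 (*Jun*; 5.38%). Without 12 h A, day 3 A and day 7 C the numbers called at the 5 times were 2, 3, 2, 1 and 1. The first 2 of these libraries were low for the genes counted, so the numbers at 12 h and day 3 are not independent of that choice. Calls were also gained at 3 h (*Atf3*) and 24 h (*Atf3*, *Maff*), times from which no library was left out. What led to these gains was not tested. The genes were picked with such results known, so nothing is read from these shares.

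Against control, edgeR called 0 of the 8 genes higher at each time, beside 0.115%, 0.386%, 0.12%, 2.81% and 1.09% of all genes at 3 h, 12 h, 24 h, day 3 and day 7. At an unadjusted p under 0.05 there were 5, 4, 4, 2 and 3 of them in either direction, and DESeq2 called *Jun* at 3 h and 0 at the other times. Of all 19970 genes, 1825, 3198, 2191, 3945 and 2981 had such a p. How many of all genes DESeq2 called against control is not given here. In edgeR, the change of the MCAO effect from one time to the next was called for 0 of the 8 genes. Of all genes it was called for 0.01%, 0.01%, 0.01% and 0.0%. DESeq2 was not run on these steps. At an unadjusted p under 0.05 these steps had 2, 2, 1 and 1 of the 8, beside 1421, 1015, 1765 and 3231 of all 19970 genes.

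**Figure D1:**
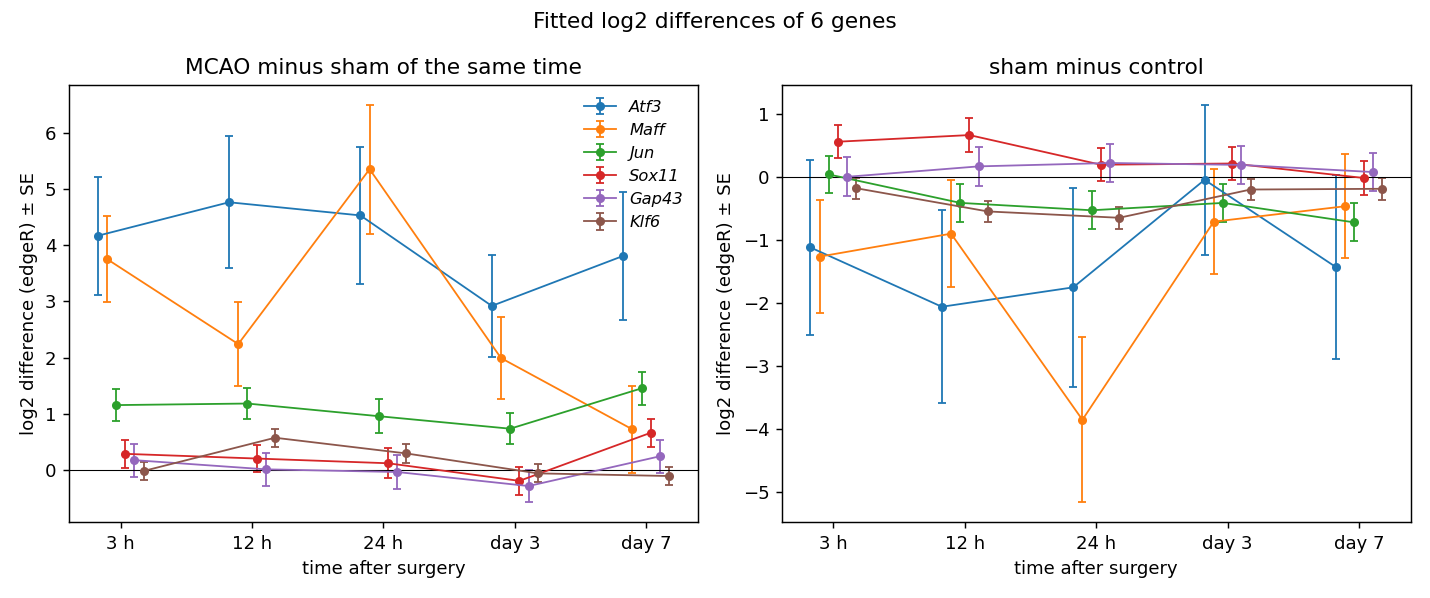
Fitted log2 difference (vertical axis, edgeR, bars ± standard error) by time after surgery (horizontal axis) for the 6 genes with a read in every group, MCAO minus sham on the left and sham minus control on the right. *Atf3* lies highest after MCAO except at 24 h, where *Maff* does, both have wide errors, and *Maff* is at 0.73 at day 7, *Jun* runs between 0.74 and 1.45, and *Sox11*, *Klf6* and *Gap43* stay near 0.

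To show what precedes these genes, the 250 bases before the start were taken from RefSeq promoters of GRCm38.p6, where *Atf3*, *Jun*, *Sox11*, *Sprr1a*, *Klf6* and *Maff* had an entry, with 3 starts for *Maff*. Both strands were searched for the AP-1 motif TGANTCA, the cAMP response element (CRE) TGACGTCA, the STAT motif TTCNNNGAA and the CArG box of serum response factor. Of 32851 promoters of the same length, 6.75%, 1.55%, 7.02% and 1.47% held these. After the letters had been seen, the short CRE ACGTCA (6.47% of promoters) and a CRE with 1 free base, TGACNTCA (7.49%), were added. These 2 overlap the full CRE and each other. The promoters shown are those of 3 genes that stood apart after MCAO and of *Sprr1a*, the only one of the 6 with an AP-1 motif. Capitals mark the matches.
Atf3 (chr1:191183334-191183583, minus strand): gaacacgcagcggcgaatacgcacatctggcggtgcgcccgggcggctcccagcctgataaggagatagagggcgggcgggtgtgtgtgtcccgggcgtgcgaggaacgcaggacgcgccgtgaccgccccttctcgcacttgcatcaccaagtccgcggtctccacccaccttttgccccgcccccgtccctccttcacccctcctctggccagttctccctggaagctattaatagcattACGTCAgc
Jun (chr4:95052223-95052472, minus strand): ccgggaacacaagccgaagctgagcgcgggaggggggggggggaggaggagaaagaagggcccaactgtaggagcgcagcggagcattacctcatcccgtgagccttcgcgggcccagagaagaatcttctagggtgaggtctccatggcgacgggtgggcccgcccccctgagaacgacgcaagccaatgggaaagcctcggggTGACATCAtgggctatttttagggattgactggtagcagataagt
Maff, second start (chr15:79347270-79347519, plus strand): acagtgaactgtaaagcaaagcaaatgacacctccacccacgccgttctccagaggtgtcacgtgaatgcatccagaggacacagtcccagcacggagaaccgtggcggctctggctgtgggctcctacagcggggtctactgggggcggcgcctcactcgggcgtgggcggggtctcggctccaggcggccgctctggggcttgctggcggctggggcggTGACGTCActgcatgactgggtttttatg
Sprr1a (chr3:92485882-92486131, minus strand): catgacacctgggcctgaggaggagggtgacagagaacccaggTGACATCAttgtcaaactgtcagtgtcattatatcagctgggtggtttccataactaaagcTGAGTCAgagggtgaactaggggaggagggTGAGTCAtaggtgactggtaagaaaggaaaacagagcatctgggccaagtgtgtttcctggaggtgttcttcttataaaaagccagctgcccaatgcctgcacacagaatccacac

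Counting -1 as the last base before the start, *Atf3* held the short CRE from -8 to -3 and *Jun* the CRE with 1 free base from -45 to -38. *Maff* held the full CRE before its second start (-29 to -22), the looser form before the third (-45 to -38) and no match before its first. *Sox11* (-42 to -35) and *Klf6* (-119 to -112) also held the looser form, so these letters did not separate the genes that stood apart after MCAO from the others. *Sprr1a* held the AP-1 motif from -146 to -140 and from -116 to -110, and the looser CRE from -207 to -200. The STAT motif and the CArG box were found in none of these 8 windows. A match is a description of the letters and not a binding site.

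*Atf3* (ENSMUSG00000026628.13, chr1:191170296-191218039, minus strand of GRCm38) is a stress-induced gene whose protein is the usual marker of neurons with a cut axon. Its 4 control libraries had 0.558, 0.562, 1.69 and 1.71 CPM, and the 20 sham libraries lay between 0 and 2.31 CPM. At 3 h after MCAO the 5 libraries had 9.64, 12.8, 14.7, 7.32 and 4.56 CPM, the highest of the sham libraries of that time being 1.64 CPM. The groups did not overlap at this time. At 12 h the values were 0, 1.94, 21.4, 5.29 and 10.7 CPM, so that library A was at the sham level while library C was the second highest of all 48. At 24 h all 4 libraries (3.82, 3.74, 10.2 and 15.3 CPM) lay above the shams of their time. At day 3 the values were 1.07, 3.16, 11.5, 10.7 and 16.7 CPM, and at day 7 they were 0, 3.05, 23.8, 2.4 and 1.88 CPM. Only library A lay within the sham range on both days, and the mean of day 7 rested on library C.

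The mean level of *Atf3* was 9.79 ± 4.07 CPM at 3 h after MCAO (SD, n = 5) against 0.521 ± 0.772 CPM in sham (SD, n = 4), a log2 difference of 4.17 ± 1.05 (standard error). The shams of 12 h, 24 h and day 7 held only 2, 2 and 3 reads of *Atf3* in all, so ratios are given with an exact 95% interval that covers counting error only. The ratio to sham was 32.2 at 12 h (8.59 to 271), 26.5 at 24 h (7.05 to 223) and 15.7 at day 7 (5.10 to 78.7). At day 3 the log2 difference was 2.92 ± 0.91. Without library C the ratio was 17.1 at 12 h, and without library C of day 7 it was 5.01 there. The 5 MCAO means ran from 6.23 to 9.79 CPM, and no neighbors in their order differed by more than the larger SD. Taken over all times, 19 of the 24 MCAO libraries lay above all 24 sham and control libraries. The share of all genes with such a number is not given here, so nothing is read from it. Against control, too, the log2 difference was between 2.38 and 3.05 at each time.

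*Maff* (ENSMUSG00000042622.13, chr15:79346621-79359076, plus strand) encodes the small MAF protein, a partner of the stress factor NRF2. It had 2.79, 1.12, 3.95 and 3.99 CPM in control and between 0 and 3.13 CPM in the shams. At 3 h after MCAO the libraries had 14.5, 21.3, 18, 15.9 and 15 CPM, a narrow range with no overlap with the shams of 3 h (0 to 2.30 CPM). The log2 difference was 3.76 ± 0.76. *Maff* was the one gene of the 8 called at this time, and the call was lost when any 1 of the 9 libraries was left out (log2 difference from 3.33 to 4.17). At 12 h the libraries had 2.60, 5.82, 18.8, 4.12 and 7.15 CPM and at 24 h 2.12, 5.61, 7.63 and 19.6 CPM. The sham libraries of 24 h held 1 read in all, and the ratio to them was 53.8 (exact 95% interval 9.33 to 2157), or 34.8 without library D.

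At day 3 the libraries had 0.534, 7.68, 8.99, 4.88 and 14.1 CPM, a log2 difference of 1.99 ± 0.72, and at day 7 they had 0, 1.53, 8.92, 3.84 and 3.76 CPM, a log2 difference of 0.73 ± 0.77. The groups overlapped on both days. Library A lay within the sham range at day 3 and below it at day 7, where library B lay within it. The mean of 16.9 ± 2.76 CPM at 3 h (SD, n = 5) was the highest of the 11 groups and differed from the next, 8.73 ± 7.57 CPM at 24 h (SD, n = 4), by more than the larger SD. The difference in the MCAO effect between 3 h and 12 h was -1.51 ± 1.12 on the log2 scale. Over all times 17 of the 24 MCAO libraries lay above all sham and control libraries. For this number, too, the share of all genes is not given here and nothing is read from it. The control mean of *Maff*, 2.96 ± 1.34 CPM (SD, n = 4), was above each sham mean, and the log2 difference from control at 3 h was 2.49 ± 0.68 and *Maff* was not called there.

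**Figure D2:**
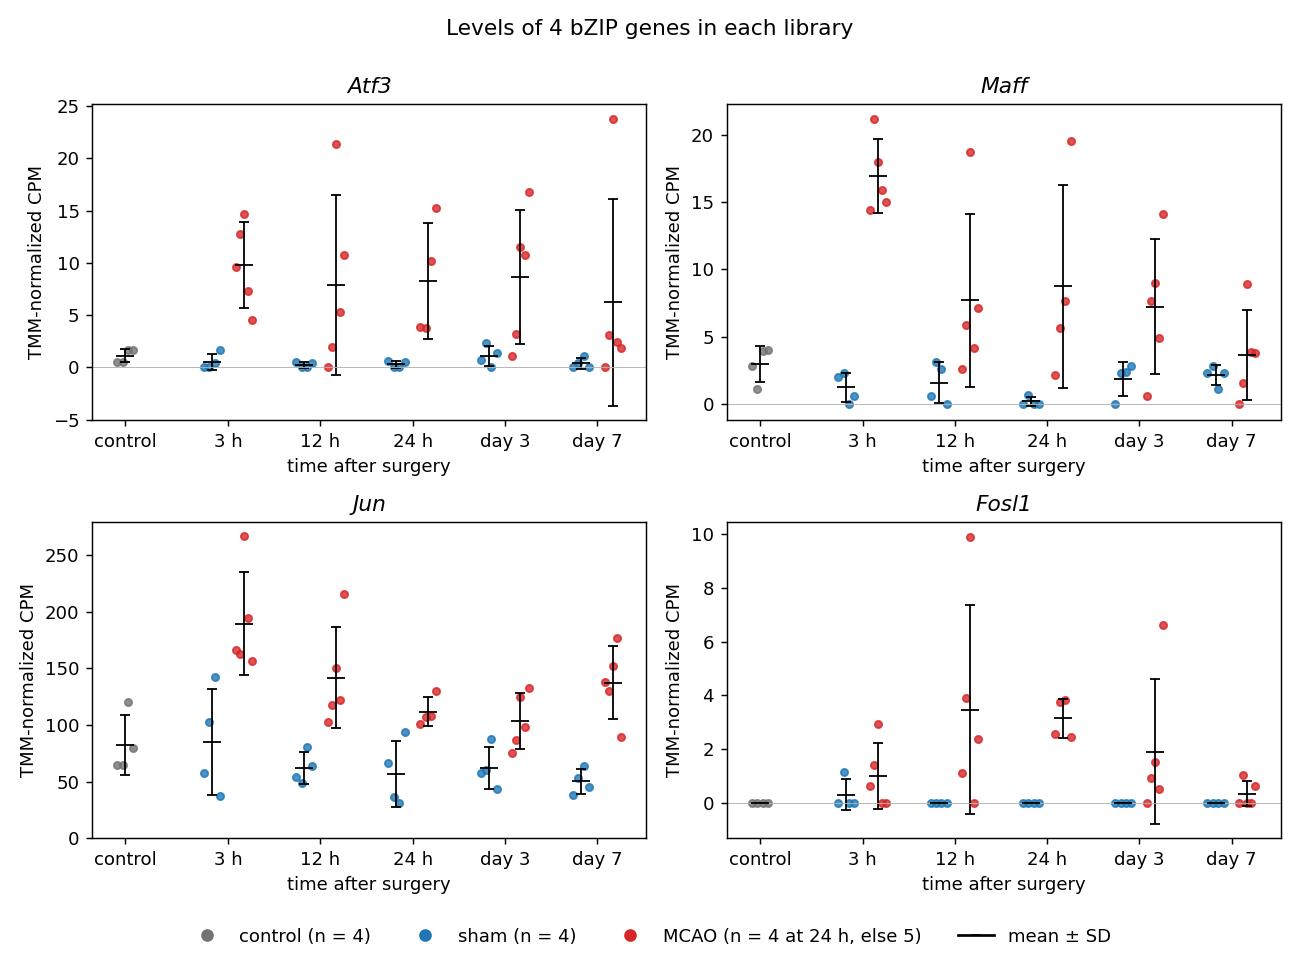
Levels of *Atf3*, *Maff*, *Jun* and *Fosl1* in each library (points, TMM-normalized CPM on linear axes) by time after surgery, with the mean and SD of each group as black bars. *Maff* is highest at 3 h (14.5 to 21.3 CPM), *Atf3* is spread widely from 12 h on, *Fosl1* is at 0 in 19 of the 20 sham libraries, and the highest *Jun* library is 267 CPM at 3 h.

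*Fosl1* (ENSMUSG00000024912.5, chr19:5447547-5455946, plus strand; it overlaps *Ccdc85b*, which had 55 reads in all) was the rarest of the bZIP genes, with 98 reads in all, 96 of them in 17 of the 24 MCAO libraries. The control libraries had no read, which allows up to 0.422 CPM (3 reads over the group), and the only sham library with reads was 3 h B (2 reads, 1.15 CPM). At 3 h after MCAO the libraries had 0.603, 1.42, 2.94, 0 and 0 CPM, overlapping the shams, with 11 reads against 2 and a ratio of 4.29 (exact 95% interval 0.937 to 39.9), or 2.01 without library C. At 12 h they had 1.11, 3.88, 9.91, 0 and 2.38 CPM, a ratio of 10.1 with 3 reads taken for the sham group. Library C held 19 of these 34 reads, and without it the ratio was 5.52. At 24 h the values were 2.55, 3.74, 3.81 and 2.45 CPM, a ratio of 7.23 and the time at which all libraries had reads. At day 3 the libraries had 0, 0.904, 1.5, 0.488 and 6.61 CPM, a ratio of 6.19. Library E held 15 of these 21 reads, and without it the ratio was 2.26. These ratios to 3 reads leave out the counting error of the MCAO reads and are not lower limits. At day 7 library B had 1.02 CPM and library E 0.626 CPM, 3 reads in all, for which no fold is given.

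*Jun* (ENSMUSG00000052684.4, chr4:95049034-95052222, minus strand) is induced at once by many stimuli and its protein is the main target of JNK. An antisense gene, *Junos*, overlaps it and had no more than 2.79 CPM, and as the strand setting of the counting is not given, reads of the pair may not have been told apart. The control libraries had 64.7, 64.6, 121 and 79.7 CPM. The shams of 3 h were spread most (57.3, 103, 143 and 37.1 CPM), and over all shams the range was 31.1 to 143 CPM. At 3 h after MCAO the libraries had 166, 163, 267, 194 and 157 CPM, all above the shams, with a mean of 189 ± 45.8 CPM (SD, n = 5) against 85.0 ± 47.2 CPM (SD, n = 4). This was 2.23 times the sham level, a log2 difference of 1.16 ± 0.28. At 12 h they had 103, 117, 150, 122 and 216 CPM, 2.29 times the sham level of 61.9 ± 14 CPM, and at 24 h 101, 107, 108 and 130 CPM, 1.96 times it. Neither time overlapped with its shams.

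At day 3 *Jun* was nearest to sham, with 75.3, 86.3, 124, 98.6 and 133 CPM, and libraries A and B lay within the sham range (43.6 to 87.8 CPM). At day 7 the libraries had 138, 130, 152, 177 and 89.5 CPM against 38.3, 52.7, 63.8 and 45.6 CPM in sham. The mean of 137 ± 32.1 CPM (SD, n = 5) was 2.74 times that of sham, 50.1 ± 10.8 CPM (SD, n = 4), a log2 difference of 1.45 ± 0.29. *Jun* was called against sham at day 7 in the main fit, in each of the 9 fits without 1 library and in each of the 9 other settings. All of these fits use libraries whose results were known when *Jun* was picked, so they lend the call no support. The sham mean of day 7 was the lowest of all groups, and against control the log2 difference at day 7 was 0.74 ± 0.28 and *Jun* was not called. From day 3 to day 7 the MCAO effect differed by 0.72 ± 0.40 on the log2 scale. In the order of the 11 groups, the mean of 3 h after MCAO stood above the next, 12 h after MCAO (142 ± 44.8 CPM; SD, n = 5), by slightly more than the larger SD, and no other neighbors did.

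Of 18 other genes of AP-1 and related bZIP factors, all tested, edgeR called *Fosb* higher at 3 h, *Atf2* lower at day 3, and 0 genes at 12 h and 24 h. At these last times 4 and 5 had an unadjusted p under 0.05, and DESeq2 called 0 and 0. *Fosb*, an immediate early gene of the FOS family, had 196 ± 141 CPM at 3 h after MCAO (SD, n = 5) against 28.0 ± 9.63 CPM in sham (SD, n = 4). Its log2 difference was 2.81 ± 0.54 (adjusted p = 0.00648 from edgeR), with MCAO libraries from 70.2 to 433 CPM all above the highest sham of 36.3 CPM. *Fosb* did not pass in 6 of the 9 fits without 1 library. *Atf2*, a bZIP target of stress kinases, had 88.8 ± 20.4 CPM at day 3 (SD, n = 5) against 150 ± 10.5 CPM (SD, n = 4), a log2 difference of -0.76 ± 0.18 (adjusted p = 0.00467 from edgeR), lost in 7 of the 9 fits without 1 library. The median log2 difference of the 18 partners lay between 0.36 and 0.49 at the 5 times, where that of all genes tested lay between 0 and 0.06. This list and the later ones were chosen with earlier results of these libraries known. Their counts and p-values therefore describe the libraries and are no independent support.

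*Sox11* (ENSMUSG00000063632.6, chr12:27334264-27342574, minus strand) belongs to the SOXC factors of newborn neurons. It had 106 ± 23.9 CPM in control (SD, n = 4) and 191 ± 46.2 CPM at 3 h and 194 ± 26.5 CPM at 12 h after MCAO (SD, n = 5 each). The shams of these times were high as well, at 156 ± 77.5 CPM and 168 ± 52.4 CPM (SD, n = 4 each), so the log2 difference from sham was 0.29 ± 0.25 at 3 h and 0.21 ± 0.25 at 12 h. The control, by contrast, lay below all 5 MCAO libraries of 12 h (170 to 225 CPM) and all 5 of day 7 (138 to 194 CPM). The share of all genes for which this held is not given here, so nothing is read from it. At 24 h and day 3 the log2 differences were 0.12 ± 0.26 and -0.19 ± 0.25. At day 7 the MCAO libraries ran from 138 to 194 CPM and the shams from 66.3 to 145 CPM, with 4 of the 5 above all shams and a log2 difference of 0.66 ± 0.25, the largest of *Sox11*. No MCAO library reached the highest sham library, 3 h C with 246 CPM. No neighbors in the order of the 11 groups differed by more than the larger SD.

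*Klf6* (ENSMUSG00000000078.6, chr13:5861482-5870394, plus strand) is a zinc finger factor of many cell types. Its control libraries ran from 104 to 123 CPM, and it was nearest to a difference at 12 h, with 79.4, 111, 126, 116 and 152 CPM after MCAO against 70.9 to 86.1 CPM in sham. There, 4 of the 5 libraries lay above all shams, library A did not, and the log2 difference was 0.58 ± 0.16. The mean at 12 h after MCAO, 117 ± 26.4 CPM (SD, n = 5), was close to that of control, 114 ± 10 CPM (SD, n = 4), with a log2 difference of 0.03 ± 0.16. The sham of this time was lower than both, at 78.1 ± 6.85 CPM (SD, n = 4). At 3 h, 24 h, day 3 and day 7 the log2 differences from sham ran from -0.10 to 0.30. In the order of the 11 groups 1 pair of neighbors differed by more than the larger SD, control and sham of 3 h (101 ± 8.84 CPM; SD, n = 4).

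*Gap43* (ENSMUSG00000047261.9, chr16:42248442-42340651, minus strand) is made by neurons, most of all while their axons grow. It had 645 ± 151 CPM in control (SD, n = 4), and the group means ran from 608 to 811 CPM and no neighbors in their order differed by more than the larger SD. The log2 difference from sham was 0.18 ± 0.29 at 3 h, 0.01 ± 0.29 at 12 h, -0.03 ± 0.31 at 24 h, -0.28 ± 0.29 at day 3 and 0.25 ± 0.29 at day 7. The spread among MCAO libraries was wide at day 3, from 273 CPM in library C to 1150 CPM in library A, which were the lowest and the highest *Gap43* values of all 48 libraries. Libraries C, D and E of that day (273, 489 and 397 CPM) lay below all its shams (502 to 957 CPM). They also had the lowest sums of the 12 neuronal markers of that day, 9278, 9769 and 9408 CPM, where the shams had 12890 to 14725 CPM and library A 13229 CPM. Their sums of the 11 microglia and macrophage markers were 3271, 2125 and 2959 CPM, where the shams had 315 to 410 CPM and library A 759 CPM. The part of these cells in the *Gap43* values was not tested. The same 3 libraries had the highest *Atf3* of day 3, and library A the lowest. In the 24 MCAO libraries Pearson's r of log2(CPM + 1) between *Atf3* and *Gap43* was -0.57, given with no p because libraries of a time share the time.

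**Figure D3:**
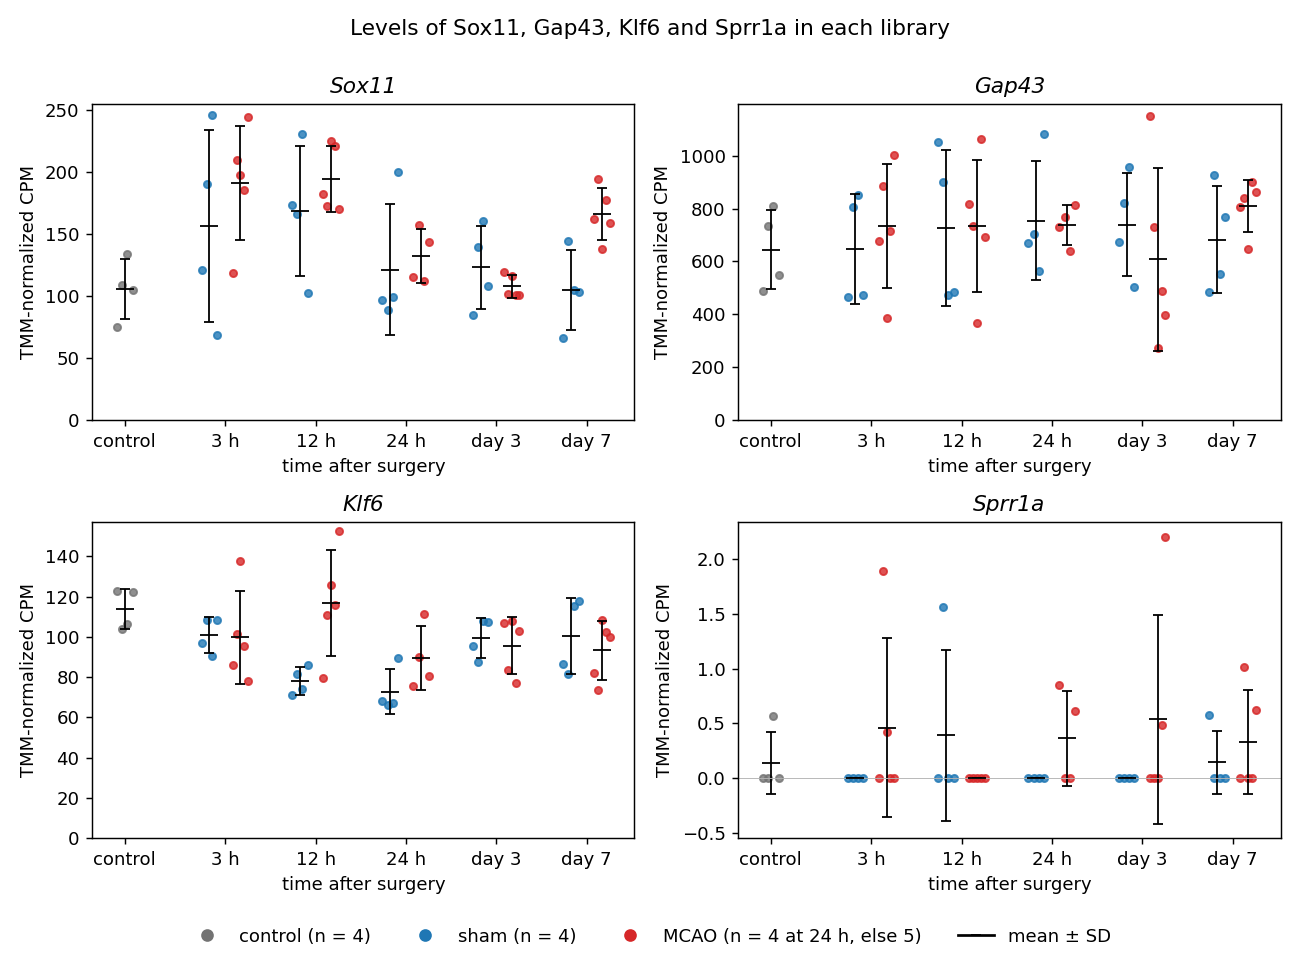
Levels of *Sox11*, *Gap43*, *Klf6* and *Sprr1a* in each library (points, TMM-normalized CPM on linear axes) by time after surgery, with the mean and SD of each group as black bars. MCAO and sham overlap in all panels at 3 h, and 3 libraries of day 3 after MCAO hold less *Gap43* (273 to 489 CPM) than its shams.

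*Sprr1a* (ENSMUSG00000050359.7, chr3:92483952-92485895, minus strand) had 22 reads, 17 of them in 8 of the 24 MCAO libraries and 5 in 3 of the 24 others. Its highest values were 2.20 CPM (day 3 E) and 1.89 CPM (3 h B) after MCAO and 1.56 CPM in sham 12 h B. At 12 h no MCAO library had a read. With 3 reads taken for a sham group without reads, the ratio of *Sprr1a* was 1.30 at 3 h (5 reads) and 1.77 at day 3 (6 reads). These ratios leave out the counting error of the MCAO reads and are not lower limits. For the other times no fold is given. Library B held 4 of the 5 reads and library E 5 of the 6, and without that library 1 read was left at each time, for which no fold is given. Of its 10 relatives in the *Sprr* family none had more than 10 counts. Of 11 skin keratinocyte markers, the summed level was 17.4 to 50.9 CPM after MCAO and 11.4 to 48.7 CPM in the other libraries. *Krt5* and *Krt14* were at 0 in control, in all sham groups and after MCAO at 3 h, 12 h, 24 h and day 7. At day 3 after MCAO, where *Sprr1a* had 6 reads, both were read, and *Krtdap* was the only marker at 0. The summed level of the 11 markers was not higher there, with a median of 26.66 CPM after MCAO and 42.93 CPM in sham. In MCAO libraries A to E of day 3 the sums were 40.04, 26.66, 20.97, 36.13 and 25.56 CPM. Of these, only library D (1 read) and library E (5 reads) held *Sprr1a*. The part of skin cells in the *Sprr1a* reads was not tested.

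The operation alone was compared with control in the same fit, the 5 tests sharing the 4 control libraries. In edgeR 0 of the 8 genes passed at each time, beside 0.0%, 0.0351%, 0.01%, 0.0% and 0.0% of all genes called in either direction at 3 h, 12 h, 24 h, day 3 and day 7. At an unadjusted p under 0.05 the numbers of the 8 were 1, 2, 2, 0 and 1, and DESeq2 called 0 of them at each time. Of all 19970 genes, 735, 1086, 863, 731 and 1605 had such a p. Every sham library lay below every control for 1 gene at 12 h (*Klf6*; 1.62% of all genes), 2 at 24 h (*Klf6* and *Maff*; 2.21%) and 1 at day 7 (*Jun*; 2.6%). *Klf6* had log2 differences of -0.54 ± 0.17 at 12 h (adjusted p = 0.753 from edgeR) and -0.64 ± 0.17 at 24 h (adjusted p = 0.325 from edgeR). *Maff* had 1 read in the shams of 24 h and 21 in control. *Sox11* was 0.67 ± 0.26 higher at 12 h (adjusted p = 0.908 from edgeR), with 3 of 4 shams above all controls. *Jun* was 0.72 ± 0.30 lower at day 7 on the log2 scale (adjusted p = 0.576 from edgeR). These p-values do not show that the groups were alike.

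Among the 7 genes other than *Sprr1a*, library C of 3 h was highest for *Atf3*, *Jun*, *Klf6* and *Fosl1* and lowest for *Gap43*, and library E of that time was lowest for the first 3 of these and tied with library D as lowest for *Fosl1*. Library C of 12 h was highest for *Atf3*, *Sox11*, *Maff* and *Fosl1* and lowest for *Gap43*. Library A of that time was lowest for *Atf3*, *Jun*, *Klf6* and *Maff*. At 24 h, library D was highest for *Atf3*, *Jun*, *Gap43* and *Maff*. At day 3, library E was highest for *Atf3*, *Jun*, *Maff* and *Fosl1*, and library A lowest for the same 4. In the MCAO libraries r of log2(CPM + 1) was 0.80 between *Atf3* and *Maff*, 0.45 between *Atf3* and *Jun* and 0.39 between *Atf3* and *Fosl1* (24 libraries, which share times and lesion). Granulocyte markers (8 genes) summed to 206 CPM in 12 h C and 16.3 CPM in 12 h A, but the highest sum at 12 h was 1764 CPM in library E, where *Atf3* had 10.7 CPM. At day 3 the sum was 8.54 CPM in library A and 130 CPM in library E, the highest being 780 CPM in library C, and fibroblast markers (8 genes) summed to 184 CPM in A and 1699 CPM in E. Their part in these differences between libraries was not tested.

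**Figure D4:**
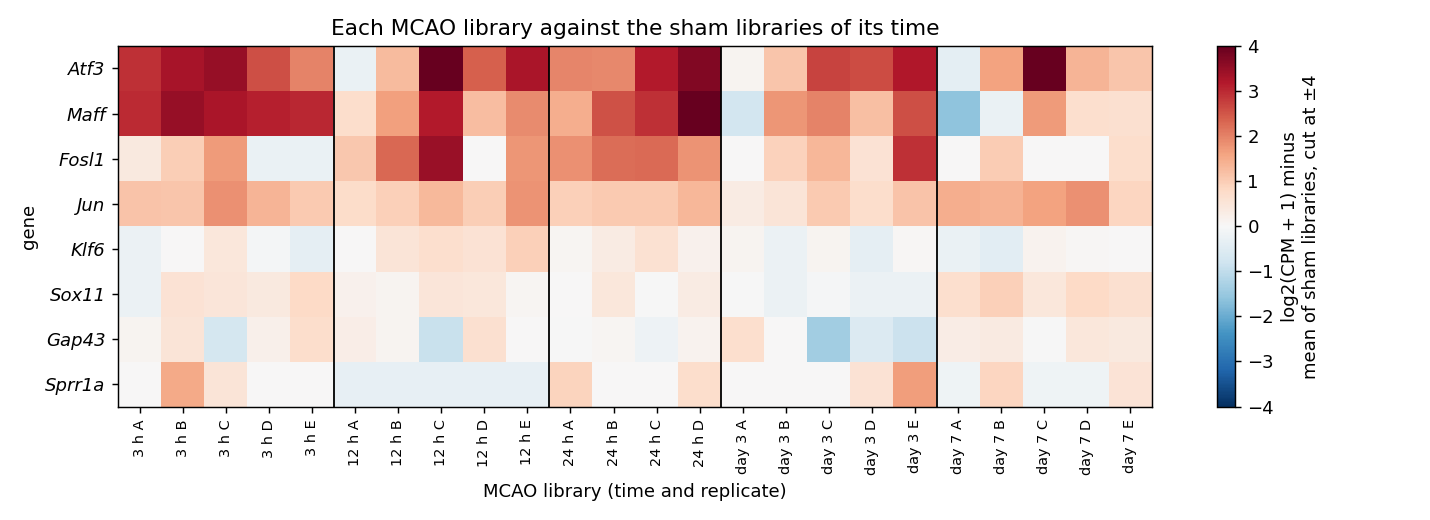
Each of the 24 MCAO libraries (columns, grouped by time) against the mean of the sham libraries of its time, as a difference in log2(CPM + 1) (color, cut at ±4), for the 8 genes (rows). Libraries 12 h A, day 3 A and day 7 A are pale for *Atf3*, 12 h C and day 7 C are dark, and the rows of *Sox11* and *Klf6* are pale throughout.

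Pearson's r over all 48 libraries was used to name the genes most like each of the 8 among 13908 genes with a mean of at least 2 CPM, a likeness that holds the difference between MCAO and the rest. *Atf3* was most like *Ccl2* (r = 0.93), *Ccl4* (0.86) and *Cebpd* (0.85), of which the first pair are chemokines. Within the 24 MCAO libraries its r with *Ccl2* was 0.88, and within the 24 sham and control libraries 0.49. *Maff* was most like *Ccl2* (0.80), *Atf3* (0.79) and *Cdkn1a* (0.79), an inhibitor of the cell cycle. *Fosl1* was most like *Ptx3* (0.84), *Adamts1* (0.80) and *Mt2* (0.78). *Jun* was most like *Fndc3a* (0.80), *Adamts9* (0.75) and *Pim1* (0.73), and its r with *Fndc3a* was 0.78 in sham and control libraries as well.

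The other 4 genes had a different company. *Gap43* was most like *Tmem35a* (0.89), *Caly* (0.84) and *Hrk* (0.84), genes expressed in neurons, with r of 0.90, 0.89 and 0.87 in the MCAO libraries. *Sox11* was most like *Dgkg* (0.72), *Camk2d* (0.70) and *Kcnd3* (0.70), and the likeness was closer in the sham and control libraries (0.88, 0.83 and 0.76). *Klf6* had an r of 0.48 with *Cxcl2* and 0.48 with *Fzd9*, which were among its 3 most alike genes. For *Sprr1a*, read in 11 libraries, the highest were 0.52 with *Hist1h2bc*, 0.49 with *Adamtsl4* and 0.49 with *Hist1h2be*.

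Of 16 other transcription factors of regeneration, edgeR called *Stat3* higher at 12 h, *Stat3*, *Cebpd* and *Rest* at day 3 and *Sox4* at day 7. At 3 h and 24 h it called 0, where 4 and 3 had an unadjusted p under 0.05 and DESeq2 called 0 and 2 (*Cebpd*, *Stat3*). *Stat3*, which carries the signal of the IL-6 family of cytokines, had 238 ± 110 CPM at day 3 (SD, n = 5) against 96.0 ± 7.07 CPM in sham (SD, n = 4), a log2 difference of 1.31 ± 0.22 (adjusted p = 6.43e-05 from edgeR). *Cebpd*, a bZIP factor of the acute phase, had 36.4 ± 21.9 CPM (SD, n = 5) against 7.48 ± 4.47 CPM (SD, n = 4), and *Rest*, a repressor of neuronal genes, 29.2 ± 17.2 CPM (SD, n = 5) against 9.13 ± 4.28 CPM (SD, n = 4). Their log2 differences were 2.30 ± 0.51 (adjusted p = 0.00178 from edgeR) and 1.66 ± 0.37 (adjusted p = 0.00198 from edgeR). *Sox4*, the closest relative of *Sox11*, rose at day 7 to 99.3 ± 26.9 CPM (SD, n = 5) from 52.2 ± 13.1 CPM (SD, n = 4), a log2 difference of 0.93 ± 0.22 (adjusted p = 0.00532 from edgeR), the time at which *Sox11* differed most. *Stat3* passed at day 3 in each of 9 fits without 1 library, while *Cebpd* was lost without MCAO C, sham A or sham C (log2 difference from 1.98), *Rest* without MCAO C, MCAO E, sham B or sham D (from 1.42) and *Sox4* in 6 of them. At day 3 markers of other cells were called higher as well, 9 of 11 for microglia and macrophages (sums of 759 to 3271 CPM against 315 to 410 CPM in sham), 4 of 7 for granulocytes (8.54 to 780 CPM against 2.34 to 7.98 CPM), 4 of 8 for fibroblasts (175 to 1699 CPM against 112 to 189 CPM) and 3 of 8 for endothelial cells (255 to 735 CPM against 263 to 295 CPM). Their part in the day 3 differences was not tested.

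Among 32 effectors of growth and axon repair, 1 was called at 12 h, 3 at day 3 and 5 at day 7. At 3 h and 24 h edgeR called 0, with 3 and 8 at an unadjusted p under 0.05 and 0 and 2 (*Cd44*, *Hspb1*) by DESeq2. *Cd44*, a receptor for hyaluronan, was called at all 3 times and had 65.3 ± 49.6 CPM at day 3 (SD, n = 5) against 5.20 ± 2.39 CPM (SD, n = 4), a log2 difference of 3.63 ± 0.56 (adjusted p = 1.14e-05 from edgeR). *Lgals1*, a galectin, had 215 ± 133 CPM (SD, n = 5) against 20.8 ± 5.22 CPM (SD, n = 4), a log2 difference of 3.37 ± 0.47 (adjusted p = 2.74e-06 from edgeR). *Arg1*, arginase, was read 599 times at day 3 and 2 times in its shams, a ratio of 265 (exact 95% interval 73.0 to 2191), and its MCAO libraries ran from 0 to 140 CPM. *Plat*, a plasminogen activator, had 15.1 ± 7.32 CPM at day 7 (SD, n = 5) against 2.99 ± 1.20 CPM (SD, n = 4; log2 difference 2.35 ± 0.56, adjusted p = 0.00475 from edgeR) and was lost in 6 of 9 fits without 1 library. *Dpysl3* and *Lgals1* also rose and *Vip* fell at day 7. *Cd44*, *Lgals1* and *Arg1* are also made by microglia, macrophages or fibroblasts, whose markers were called higher at day 3 in 9 of 11 and 4 of 8 cases, and their part in the result was not tested.

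Of 20 genes of injury kinases and death signalling, *Socs3* was called higher at 12 h and day 3, *Il6st* higher at day 3 and *Mapk10* lower at day 7. At 3 h and 24 h edgeR and DESeq2 called 0, with 1 and 3 at an unadjusted p under 0.05. *Socs3*, an inhibitor of STAT3 signalling, had 33.4 ± 34.3 CPM at 12 h (SD, n = 5) against 2.59 ± 1.98 CPM (SD, n = 4), a log2 difference of 3.61 ± 0.78 (adjusted p = 0.00819 from edgeR). *Il6st*, the shared receptor of the IL-6 family, had 84.6 ± 38.6 CPM (SD, n = 5) against 43.3 ± 4.89 CPM (SD, n = 4), a log2 difference of 0.97 ± 0.25 (adjusted p = 0.00754 from edgeR). Each was lost in 6 of 9 fits without 1 library. *Mapk10*, the neuronal form of JNK, had 272 ± 35.0 CPM at day 7 (SD, n = 5) against 444 ± 57.3 CPM (SD, n = 4), a log2 difference of -0.71 ± 0.16 (adjusted p = 0.00254 from edgeR), lost without MCAO C or sham D (log2 difference to -0.63). Of the relatives of *Klf6*, *Sprr1a* and *Gap43*, 10 of 20 were tested, and *Nrgn*, a calmodulin-binding relative of *Gap43* in dendrites, was called lower at day 7, with 7938 ± 1250 CPM (SD, n = 5) against 18966 ± 5618 CPM (SD, n = 4) and a log2 difference of -1.26 ± 0.26 (adjusted p = 0.00122 from edgeR), lost without sham D. At the other 4 times edgeR and DESeq2 called 0 of the 10, with 3, 3, 2 and 4 at an unadjusted p under 0.05. Neuronal markers were called lower at day 7 in 3 of 12 cases, and their part in this was not tested.

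Over the 5 lists together, 96 genes were tested, and the numbers called were 1 at 3 h, 3 at 12 h, 0 at 24 h, 10 at day 3 and 8 at day 7. The shares of all genes called in either direction were 0.11%, 0.411%, 0.0901%, 4.02% and 3.5%. At 24 h, 21 of the 96 had an unadjusted p under 0.05, and DESeq2 called 4 (*Cd44*, *Cebpd*, *Hspb1* and *Stat3*). Of all 19970 genes tested, 1757 had such a p at 24 h, and DESeq2 called 44. At 3 h, 12 h, day 3 and day 7 such a p was found for 1688, 2913, 4306 and 4697 of all genes. DESeq2 called 58, 179, 1027 and 1088 of all genes at those times. The counts of the single lists stand beside these numbers. As the lists were chosen with earlier results of these libraries known, nothing is read from these shares. The median log2 difference of the 96 genes ran from 0.00 at day 3 to 0.25 at day 7, beside 0.01 and 0.06 for all genes tested. The number of the 96 called at day 3 was 20 without library A and 6 without library C, and at day 7 it was 3 without library C and 3 without sham library D.

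**Figure D5:**
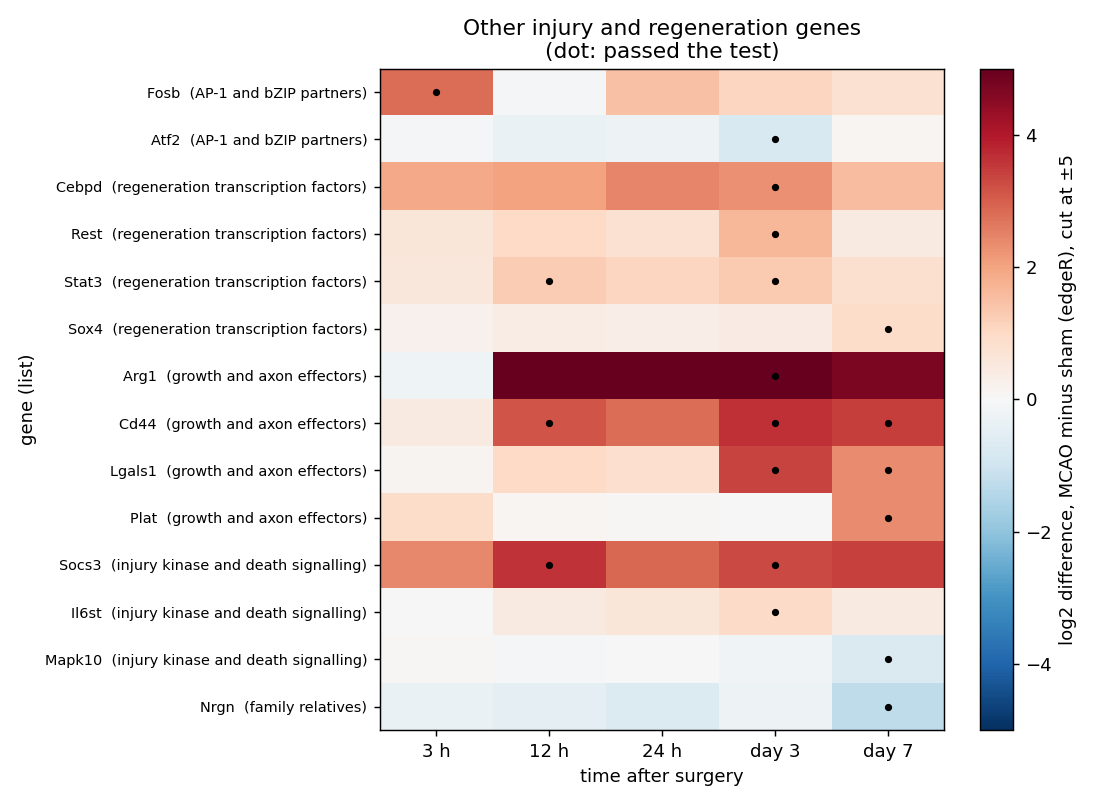
Log2 difference, MCAO minus sham (color, edgeR, cut at ±5), at each time after surgery (columns) for 14 list genes named by the rule (rows, with their list), where a dot marks a difference that passed the test. Most dots lie at day 3 and day 7, while *Fosb* is the 1 gene with a dot at 3 h.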

How the data were processed

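QuantSeq 3′ libraries of 48 brain samples were analysed. The deposited counts came from STAR 2.5.2b alignments to GRCm38, with Gencode vM8 as annotation and the union rule of htseq-count. TrimmomaticSE and SortMeRNA (against rRNA and mtDNA) had been run before alignment. The strand setting is not given in the sources used here. Raw, unscaled counts for each library were deposited, together with a log2 matrix by the authors (DESeq2, variance-stabilizing transformation), used as an alternative. Unassigned reads (median 23.5% without a feature) and spike-ins stayed out of library sizes.

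Here, groups and replicate letters came from the labels. A gene entered the test if its counts summed to over 10. The main test was edgeR 4.0.16 under R 4.3.3 (TMM scaling, glmQLFit, glmQLFTest, 1 model of 11 groups; adjusted p under 0.01, log2 difference over 0.58), also tested on simulated counts. Symbols and coordinates came from Gencode vM21 (46488 of 46983 matched). Alternatives were DESeq2 1.42.0, its size factors, spike-in scaling, other filters, fewer groups, a replicate block, control for sham and libraries left out. The 8 genes and the lists were chosen with earlier results of these data known. Named were the 8 genes, the 4 largest called differences per list and the 3 most alike genes by r. Some genes that this rule takes in are not reported here. The study gives at least 4 mice per condition for the bulk libraries.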

Additional observations from a re-analysis of the deposited data

Results flagged for a closer look

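Within each group, the highest or lowest library was set against the others by Dixon's test, which chance passes in about 1 of 20 groups of normally distributed values. That rate does not hold for low counts, as a group with reads in only 1 library is always flagged. The number flagged is therefore not set against it. Of 79 groups with any spread, 12 had a library that stood apart. *Atf3* was 23.8 CPM in library C of day 7 after MCAO, where the next was 3.05 CPM. In that library the markers of microglia and macrophages summed to 4580 CPM and those of fibroblasts to 5975 CPM, the highest of its group, and neuronal markers to 7469 CPM, the lowest. *Maff* was 18.8 CPM in library C of 12 h after MCAO, which was also highest for *Atf3* and *Fosl1* at that time. *Fosl1* was 6.61 CPM and *Sprr1a* 2.20 CPM in library E of day 3 after MCAO.

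Sham library D of 24 h stood above the other shams of its time for *Sox11* (199.8 CPM against 98.8 CPM for the next) and *Klf6* (89.7 CPM against 68.1 CPM). The remaining 6 are groups in which 1 library held 1 to 4 reads and the others fewer or none. Where the others held none, the flag was fixed in advance. These were *Maff* at 0.632 CPM in sham 24 h B and *Fosl1* at 1.15 CPM in sham 3 h B. For *Sprr1a* they were 0.564 CPM in control C, 1.89 CPM in 3 h B after MCAO, 1.56 CPM in sham 12 h B and 0.572 CPM in sham day 7 A.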

How the results depend on the processing

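The number of the 8 genes called against sham was small and moved with the processing. At 3 h it was 1, and 3 with no filter on low counts, 2 with only the groups compared, with DESeq2 and without 12 h A, day 3 A and day 7 C, and 0 with spike-in scaling and with control in place of sham. At 12 h it was 0, and 2 with no filter, 1 with DESeq2 and 3 without those 3 libraries. At 24 h it was 0, and 1 with no filter, spike-in scaling or DESeq2 and 2 without the 3 libraries. At day 3 it was 0, and 1 with no filter and without the 3 libraries. At day 7 it was 1, 2 with no filter and 0 with control in place of sham. Leaving out 1 library gave 0 at 3 h, 0 to 1 at 12 h (*Atf3*, without library A), 0 at 24 h and day 3 and 1 at day 7. For sham against control it was 0 in all settings run. Of the other 96 genes, 1 was called at 3 h, and 6 with no filter, 2 with the replicate block, with DESeq2 and without the 3 libraries, and 3 with only the groups compared. The 3 at 12 h were 7 with no filter, 0 with only the groups compared, 5 with DESeq2 and 8 without the 3 libraries. The 0 at 24 h were 6 with no filter, 4 with spike-in scaling, 2 with the replicate block, 4 with only the groups compared, 4 with DESeq2 and 5 without the 3 libraries. The 10 at day 3 were 3 with only the groups compared and 21 without the 3 libraries, and the 8 at day 7 were 14 with no filter. Without 1 library the ranges were 0 to 2, 1 to 6, 0 to 0, 6 to 20 and 3 to 9 at the 5 times. At 3 h the count was 0 without MCAO A or B or any 1 sham and 2 without MCAO D. At 12 h it was 6 without MCAO A and 1 without MCAO E, sham A or sham B, and at day 7 it was 3 without MCAO C or sham D and 5 without sham A or sham B. Over all genes, the main fit called 22, 82, 18, 802 and 698 at the 5 times. No filter gave 58, 171, 55, 931 and 998, and only the groups compared 44, 13, 51, 339 and 302. Spike-in scaling gave 14, 58, 39, 594 and 489, and the replicate block 22, 53, 21, 644 and 603. DESeq2 gave 58, 179, 44, 1027 and 1088, and control in place of sham 26, 170, 55, 617 and 300. How many of all genes were called without the 3 libraries or any 1 library is not given here. The cause of the moves in these counts was not tested. The set of 3 libraries and a striatum score as a covariate, which moved 2 of 40 log2 differences of the 8 genes by more than 1 SD between libraries, were chosen after the data were seen. Letters shared between MCAO and sham of a time did not pair the libraries, as the correlation of deviations ran from -0.31 to 0.17 over 20 pairs, and the replicate block moved 3 of the 40 log2 differences by more than 1 SD. Control in place of sham moved 18, DESeq2 6 and spike-in scaling 1. The deposited log2 matrix moved 19, all among those of *Atf3*, *Maff*, *Fosl1* and *Sprr1a*, whose differences it gave as smaller (*Atf3* 0.73 to 1.30, *Maff* 0.09 to 1.54), while *Jun* had 0.65 to 1.24 there. With 98 and 22 reads in all, *Fosl1* and *Sprr1a* are limited by depth.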
